A study of Homo sapiens with 96 samples.

Results

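RNA of K562 cells that carry a degron tag on BCOR was compared between cells given the ligand 5PhIAA for 24 h and untreated cells. K562 is an established cell line derived from chronic myeloid leukaemia, and it keeps erythroid traits. The degron (mAID, an auxin-inducible tag) marks the tagged protein for destruction once the ligand is added. All 60605 gene IDs of one deposited table entered the comparison, in 3 libraries of ligand-treated cells against 3 libraries of untreated cells, chosen by their labels out of 96 libraries in 32 groups. The study as a whole followed the BCOR and KDM2B degrons over time and added KDM2B constructs, an EZH2 inhibitor and a JARID2 and AEBP2 double knockout. The BCOR table also holds 3 libraries each at 2, 8 and 72 h, so that every group shares the tag and differs in ligand and time. The sources used here give neither the ligand dose nor whether the line is 1 clone. The untreated cells are not labelled as vehicle-treated, and the table holds no ligand-treated cells without the tag, so that the effects of BCOR loss and of the ligand itself cannot be told apart here. BCOR protein was not measured in these files.

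BCOR is the scaffold of PRC1.1, a variant Polycomb repressive complex 1 in which the RING1 or RNF2 ubiquitin ligase pairs with PCGF1. KDM2B, another subunit, binds unmethylated CpG-rich DNA and brings the complex to CpG island promoters, where it ubiquitinates histone H2A. The complex is known for keeping developmental genes at low levels, and BCOR is recurrently mutated in myeloid malignancies.

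The 6 libraries held between 5806624 and 18519442 counts, with the lowest totals in ligand-treated libraries 3 (5806624) and 2 (7349061). Of the K562 markers, GATA1 lay between 164 and 203 CPM (counts scaled by library size and composition factor) and TFRC between 1548 and 1789 CPM over the 6 libraries, while the embryonic globin HBE1 stood at 0 to 0.247 CPM. Of 15 lymphoid marker genes 2 passed the filter on low counts, with a summed level of the list of 3.87 to 5.78 CPM untreated and 2.39 to 4.43 CPM at 24 h. Of 14 fibroblast and epithelial markers 6 passed, at summed levels of 519 to 545 CPM untreated and 407 to 493 CPM at 24 h. Among all 15 libraries of the table the first principal component followed time. On the second component 24 h library 2 lay at the upper end (27.2) and 8 h library 3 at the lower end (-32.2). On the fourth, 24 h library 3 lay apart. The labels do not say that the 3 libraries of a group came from separate cultures, so every p-value measures the spread between these libraries only. In RNA from whole cultures, fewer cells of a type and less RNA per cell cannot be told apart.

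After 24 h more genes were higher than lower, and the genes that rose were mostly poorly expressed before the ligand. Of 14110 genes tested, 592 (4.2%) were called, a call needing both an adjusted p below 0.05 and a log2 fold change beyond 0.585 in either direction (edgeR quasi-likelihood F test, Benjamini-Hochberg over all genes tested). Of these, 428 (3.03%) were higher and 164 (1.16%) lower with ligand. The 428 genes that rose had a median untreated level of 0.425 CPM per kilobase of exon, against 4.64 over all genes tested. The 164 that fell had a median of 12 on the same scale, and the 132 of them outside the histone list 5.40. Genes of very low untreated level can pass the filter on low counts through ligand-treated libraries alone, and these could only be called as rising. Among the rising genes 386 were protein-coding, 244 rose by more than 1 log2 unit and 54 by more than 2. Among the falling genes 109 were protein-coding, 52 fell by more than 1 log2 unit and 4 by more than 2. The 2 groups of libraries did not overlap for 409 of the 428 rising and 158 of the 164 falling genes, and for 31.4% of all genes tested. Without ligand-treated library 2 the call count was 391.

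BCOR itself, the targeted gene (chrX:40049815-40177329, minus strand, hg38), was more abundant as RNA after its protein was targeted. Its RNA stood at 344, 264 and 313 CPM in the untreated libraries and at 780, 767 and 753 CPM at 24 h, with no overlap. This was a log2 fold change of 1.32 (SE 0.08, adjusted p = 2.6e-10 by edgeR), or 2.5-fold. At 2 h it stood at 405, 461 and 471 CPM, at 8 h at 613, 597 and 673 CPM and at 72 h at 1052, 1114 and 1060 CPM. None of the other 9 PRC1.1 subunits tested passed: KDM2B stood at 94.1 ± 2.68 CPM untreated and 101 ± 1.16 CPM at 24 h (SD, n = 3), the BCOR paralogue BCORL1 at 56.1 ± 3.3 and 65.5 ± 3.39 CPM, and PCGF1 at 11.5 ± 0.57 and 10.1 ± 2.26 CPM. No gene was called among 13 PRC2 subunits, 12 canonical PRC1 subunits and 10 tested subunits of other variant PRC1 complexes. Their medians were -0.01, 0.04 and -0.02 on the log2 scale, beside 0.01 over all genes tested.

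The promoters of some leading genes are shown with their CG dinucleotides marked. DNA methylation and KDM2B binding were not measured in these files. Each sequence holds the 250 bases before a RefSeq start (GRCh38.p14, the hg38 assembly), 5′ to 3′ on the gene's strand, with CG dinucleotides in capitals. They are the 3 rising and 2 falling genes with the lowest adjusted p among the leading 15 each way that have 1 start in the RefSeq promoter table. TUBB2B (chr6:3227654-3227903, minus strand), SLC12A7 (chr5:1112064-1112313, minus strand) and EMILIN2 (chr18:2846756-2847005, plus strand) rose, and the histone genes H4C9 (chr6:27139032-27139281, plus strand) and H4C4 (chr6:26189113-26189362, minus strand) fell.
TUBB2B: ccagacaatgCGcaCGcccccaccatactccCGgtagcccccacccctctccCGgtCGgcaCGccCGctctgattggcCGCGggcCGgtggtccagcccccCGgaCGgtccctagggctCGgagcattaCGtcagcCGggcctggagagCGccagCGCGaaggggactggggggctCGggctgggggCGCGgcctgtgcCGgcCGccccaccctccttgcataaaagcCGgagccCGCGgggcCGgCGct
SLC12A7: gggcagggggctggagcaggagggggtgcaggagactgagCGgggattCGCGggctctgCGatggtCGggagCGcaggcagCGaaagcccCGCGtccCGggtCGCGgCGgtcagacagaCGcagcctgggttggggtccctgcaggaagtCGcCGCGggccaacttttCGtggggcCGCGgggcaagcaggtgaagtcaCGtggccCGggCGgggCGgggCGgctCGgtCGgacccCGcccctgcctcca
EMILIN2: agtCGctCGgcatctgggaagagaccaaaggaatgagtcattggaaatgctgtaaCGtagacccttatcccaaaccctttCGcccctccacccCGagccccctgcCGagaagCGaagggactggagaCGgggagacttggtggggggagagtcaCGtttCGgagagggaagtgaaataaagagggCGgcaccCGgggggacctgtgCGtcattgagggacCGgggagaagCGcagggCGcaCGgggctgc
H4C9: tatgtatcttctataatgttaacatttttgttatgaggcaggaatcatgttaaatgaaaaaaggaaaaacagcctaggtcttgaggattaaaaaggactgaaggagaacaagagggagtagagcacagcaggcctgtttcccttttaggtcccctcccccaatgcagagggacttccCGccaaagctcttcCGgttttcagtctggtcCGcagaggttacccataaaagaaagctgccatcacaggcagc
H4C4: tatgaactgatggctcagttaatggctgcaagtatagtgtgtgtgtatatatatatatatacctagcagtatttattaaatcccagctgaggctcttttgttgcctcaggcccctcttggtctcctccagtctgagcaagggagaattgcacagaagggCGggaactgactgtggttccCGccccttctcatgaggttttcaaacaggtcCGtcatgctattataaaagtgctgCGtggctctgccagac
TUBB2B and SLC12A7 hold 28 CG dinucleotides each and EMILIN2 holds 17, whereas H4C9 holds 3 and H4C4 holds 4. Both falling genes shown are histone H4 genes, so these promoters do not stand for rising and falling genes at large. The median was 21 over the 9393 protein-coding genes tested that have an entry. The letters TATAAA, searched on both strands, occur in the H4C4 window and in none of the other 4, and in 5.23% of those 9393 windows. A comparison of all rising and all falling genes with the background is void, because 77.7% of the protein-coding genes that rose and 77.1% of those that fell have an entry, under the 80% needed.

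The 15 protein-coding genes with the largest rises included surface proteins, transporters, a chromatin remodeller subunit and transcription regulators, and most of them were nearly silent in untreated cells. SRRM3, a regulator of neuronal microexon splicing, stood at 0.359, 0.216 and 0.155 CPM untreated and at 1.98, 1.86 and 3.07 CPM at 24 h. Its log2 fold change of 3.13 (SE 0.40, adjusted p = 1.8e-05) was the largest of the 15, and it rests on 11 counts in the untreated libraries and 64 at 24 h. PODXL, the surface sialomucin podocalyxin, stood at 0.789, 0.378 and 0.155 CPM and then at 3.83, 3.72 and 3.41 CPM, a log2 fold change of 3.04 (SE 0.39, adjusted p = 1.8e-05). Neither gene overlapped between groups.

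SLC12A7, a potassium-chloride cotransporter, had more counts behind it. It stood at 2.44, 1.51 and 1.47 CPM untreated and at 15.2, 13.3 and 10.4 CPM with ligand, a log2 fold change of 2.89 (SE 0.24, adjusted p = 1.1e-07). TUBB2B, a beta-tubulin of neurons, stood at 2.44, 2.16 and 3.02 CPM and then at 11.6, 12 and 12.1 CPM (a log2 difference of 2.23, SE 0.20, adjusted p = 1.1e-07). The 3 treated libraries of TUBB2B lay within 0.28 CPM (SD) of their mean of 11.9 CPM. EMILIN2, an extracellular matrix glycoprotein, stood at 4.52, 2.32 and 4.42 CPM and then at 21.7, 14.1 and 15.7 CPM (a log2 difference of 2.27, SE 0.23, adjusted p = 5.1e-06).

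SMARCD3, a subunit of BAF chromatin remodelling complexes, stood at 0.932, 0.594 and 0.697 CPM untreated and at 4.51, 4.52 and 4.26 CPM with ligand (log2 fold change 2.59, SE 0.29, adjusted p = 4.3e-06). UBASH3B, a phosphatase that dampens tyrosine kinase signalling, rose by 2.96 log2 units (SE 0.50, adjusted p = 0.00065), with untreated library 1 at 0.861 CPM and the other 2 at 0.108 and 0.155 CPM. The remaining leaders were PITPNC1 (2.52), CMTM7 (2.50), the annexin partner S100A10 (2.46), HES2, a repressor of the hairy family (2.24), and the J-domain protein DNAJC22 (2.23), all as log2 fold changes. Of the 15 rising leaders, only the call of PDGFA, the platelet-derived growth factor A chain, was lost without a single library, as given with its values further on.

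By CPM, the called genes with the largest rises besides BCOR were DDX46, a spliceosome helicase, MAP1B, a microtubule-binding protein, RUNX1, a haematopoietic transcription factor, and FAM83A. DDX46 stood at 274, 227 and 186 CPM untreated and at 404, 394 and 388 CPM at 24 h (a log2 difference of 0.79, SE 0.10, adjusted p = 9.1e-05). RUNX1 stood at 124, 139 and 155 CPM and then at 210, 233 and 218 CPM (a log2 difference of 0.66, SE 0.08, adjusted p = 6.6e-06). Both were free of overlap. MAP1B (0.66), RUNX1 and FAM83A (0.60) lie near the size threshold: without untreated library 2 MAP1B stood at 0.52, without untreated library 1 RUNX1 stood at 0.58, with a correction for transcript length they stood at 0.56 and 0.55, and FAM83A had an adjusted p of 0.0505 to 0.133 without any 1 of the 6 libraries, 0.0596 with the length correction, 0.103 with no filter and 0.112 with only the 6 libraries.

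**Figure D1:**
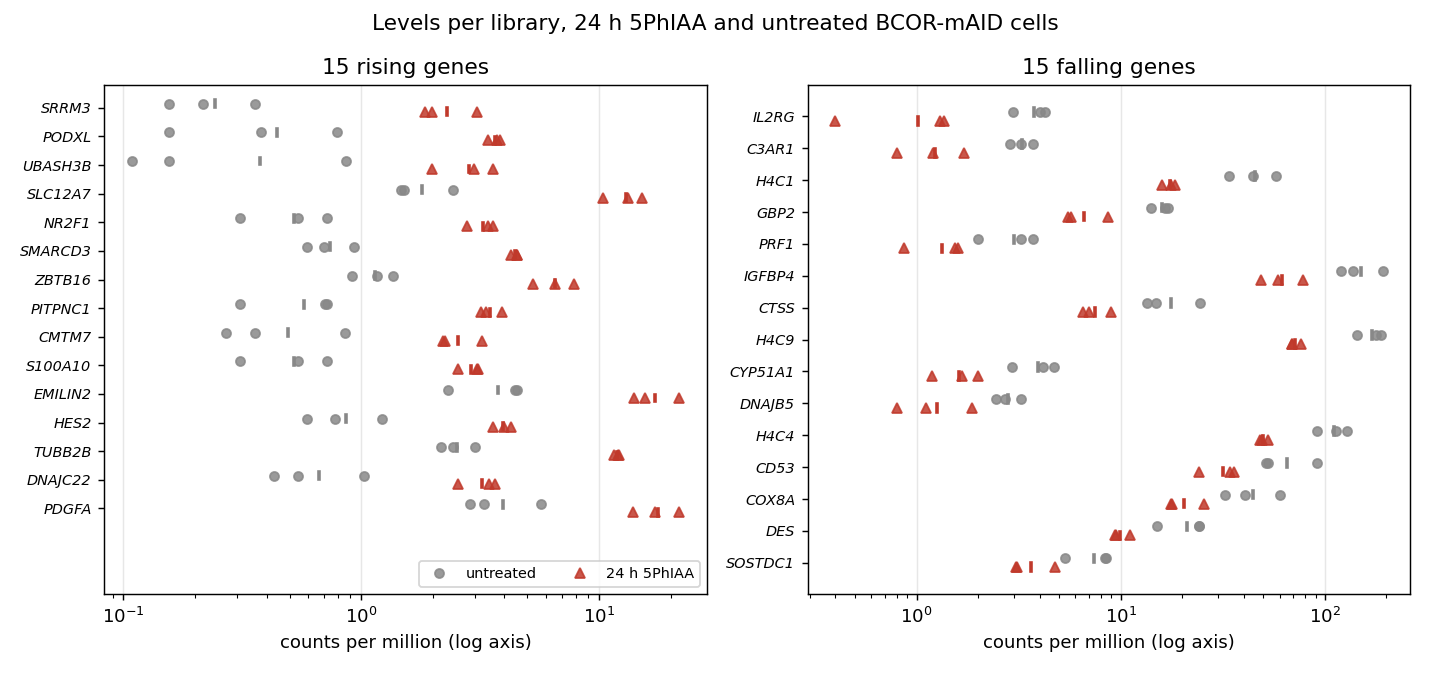
CPM (log axis) of the 15 rising (left) and 15 falling (right) named genes in each of 3 untreated (grey circles) and 3 ligand-treated libraries (red triangles), with short bars at group means. The groups do not overlap for any of the 30 genes, which the naming rule required, and 10 of the 15 rising genes have an untreated mean below 1 CPM while the falling genes run from 2.01 to 193 CPM untreated. The rule also required a mean of at least 2 CPM in the higher group, which is the untreated one for falling genes. The contrast in untreated level is therefore partly set by the rule.

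Among 28 tested developmental transcription factors, 8 rose and none fell, with a median log2 fold change of 0.25, while 3.03% of all genes tested rose and 1.16% fell. NR2F1, the nuclear receptor COUP-TF1, stood at 0.717, 0.54 and 0.31 CPM untreated and at 3.4, 2.79 and 3.58 CPM at 24 h (a log2 difference of 2.61, SE 0.36, adjusted p = 4.6e-05). ZBTB16, the zinc finger repressor PLZF, stood at 1.36, 0.918 and 1.16 CPM and then at 6.55, 7.84 and 5.28 CPM (a log2 difference of 2.54, SE 0.23, adjusted p = 2.2e-07). FOXD1, a forkhead factor, rose by 2.52 (SE 0.55) from 0.221 ± 0.0097 to 1.28 ± 0.192 CPM, and GATA6, a factor of endoderm and heart, by 2.48 (SE 0.50) from 0.185 ± 0.067 to 1.08 ± 0.444 CPM (SD, n = 3). EMX1 (1.53), TFAP2A (1.5), DLX4 (1.18) and the pioneer factor FOXA1 (0.97) made up the rest. Other members were well expressed and did not pass, such as PAX6 at 20.6 ± 1.25 and 21.7 ± 2.33 CPM, MEIS2 at 33.9 ± 1.41 and 34.2 ± 2.74 CPM and ZIC2 at 20.8 ± 1.18 and 20.2 ± 1.47 CPM. Another 20 of the 48 members did not pass the filter on low counts, so the 28 are not all members. The filter takes in a gene through any group of libraries. Members of very low untreated level, such as FOXD1 and GATA6, could therefore only be called as rising. The lack of falls in the list is partly set by the filter. No call was made among 13 tested HOX genes of 39, whose median was 0.17 and which were led in level by HOXB9 (145 ± 21.3 and 163 ± 9.21 CPM).

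Of 21 tested growth factor and adhesion genes 6 rose and none fell, with a median of 0.26, beside 3.03% and 1.16% of all genes tested. FGFR1, a receptor of fibroblast growth factors, stood at 2.15, 2.21 and 2.71 CPM untreated and at 10.1, 9.44 and 9.37 CPM with ligand (log2 fold change 2.05, SE 0.16, adjusted p = 2.3e-08). PDGFA stood at 3.3, 2.86 and 5.73 CPM and then at 14, 17.3 and 21.8 CPM (a log2 difference of 2.15, SE 0.51, adjusted p = 0.021). The wide SE of PDGFA goes with calls that were lost without ligand-treated library 2 or 3 or without untreated library 1 or 2, at adjusted p from 0.057 to 0.073. COL6A1, a collagen VI chain, rose by 2.11 (SE 0.46), the laminin chain LAMC1 by 1.91 (SE 0.50), the ephrin EFNB2 by 1.14 (SE 0.21) and the insulin-like growth factor receptor IGF1R by 0.75 (SE 0.11), from 18.7 ± 1.97 to 31.1 ± 4.54 CPM. LAMC1 overlapped between groups. COL6A1 stood at 0.213 ± 0.0576 CPM and LAMC1 at 0.517 ± 0.414 CPM untreated, so that the limit of the filter given for FOXD1 and GATA6 holds for them too.

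Of 22 Notch pathway genes tested, the ligand JAG1 (1.14, SE 0.21, adjusted p = 0.0011) and also the receptor NOTCH2 (1.08, SE 0.22, adjusted p = 0.0026) rose and none fell. Over all genes tested 3.03% rose and 1.16% fell, so few calls in a list of this size are given as single genes. JAG1 stood at 2.73, 2.65 and 3.41 CPM untreated and at 4.88, 6.38 and 9.03 CPM at 24 h. Of 14 immediate-early genes tested, FOSL2, an AP-1 subunit, rose from 4.52 ± 0.885 to 12.9 ± 2.78 CPM (1.44 log2 units, SE 0.19, adjusted p = 2.4e-05), and JUNB, another subunit, fell by 0.59, just past the size threshold.

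Of 35 erythroid genes tested 1 rose, a share near the 3.03% of all genes tested. It was the carbonic anhydrase gene CA2 (1.5, SE 0.46, adjusted p = 0.031), from 0.319 ± 0.107 to 0.845 ± 0.389 CPM with overlapping groups, and without ligand-treated library 3 no erythroid gene was called. The limit of the filter given for FOXD1 and GATA6 holds for CA2 too. The erythroid median was 0.04, and GATA1 stood at 185 ± 15.4 CPM untreated and 169 ± 4.47 CPM at 24 h. No call was made among 7 tested globin genes, with HBG2 at 75.2 ± 45.9 and 29.5 ± 10.1 CPM, nor among 5 tested megakaryocyte genes. Reads of near-identical globin copies can be split or shared between them, so their single levels are uncertain.

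Of 7 myeloid genes tested 1 rose and 2 fell, beside 3.03% and 1.16% of all genes tested. CEBPA, a myeloid transcription factor, stood at 0.43, 0.162 and 0.387 CPM untreated and at 1.42, 1.86 and 1.19 CPM with ligand (log2 fold change 2.23, SE 0.47, adjusted p = 0.003). At this untreated level the limit of the filter given for FOXD1 and GATA6 holds for CEBPA too, so that it could only be called as rising. SPI1, which encodes PU.1, stood at 25.8, 25.3 and 25.9 CPM and then at 14.7, 16.8 and 19.8 CPM (-0.62, SE 0.13, adjusted p = 0.0029). CTSS, the protease cathepsin S, stood at 14.9, 24.5 and 13.4 CPM and then at 6.55, 8.91 and 6.99 CPM (-1.28, SE 0.28, adjusted p = 0.0083). In each of these 3 genes the groups did not overlap, and the other 4 tested members of the list did not pass. Of 9 stem and progenitor genes tested, the stem cell factor receptor KIT rose from 12.7 ± 4.11 to 28.6 ± 3.54 CPM (1.15, SE 0.26, adjusted p = 0.013) beside RUNX1, and neither was called without untreated library 1.

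In the smaller lists the cell-cycle inhibitor CDKN1C rose from 16.5 ± 4.18 to 30.3 ± 1.45 CPM (0.89, SE 0.16, 1 of 5 tested). TAP1, the peptide transporter of antigen presentation, rose from 3.27 ± 0.616 to 7.62 ± 1.53 CPM (1.21, SE 0.20, 1 of 7 tested). Of 18 cytokine receptor and SOCS genes tested, the oncostatin M receptor OSMR rose (0.60, SE 0.17) and the common gamma chain IL2RG fell. With 3.03% of all genes tested rising and 1.16% falling, these calls are given as single genes and not as results about the lists. None was called among 29 cell-cycle genes (median -0.11), 11 interferon-stimulated genes (-0.05), 21 integrated stress response genes (0.16), 13 heat shock genes (0.03) and 12 MAPK feedback genes (0.06).

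**Figure D2:**
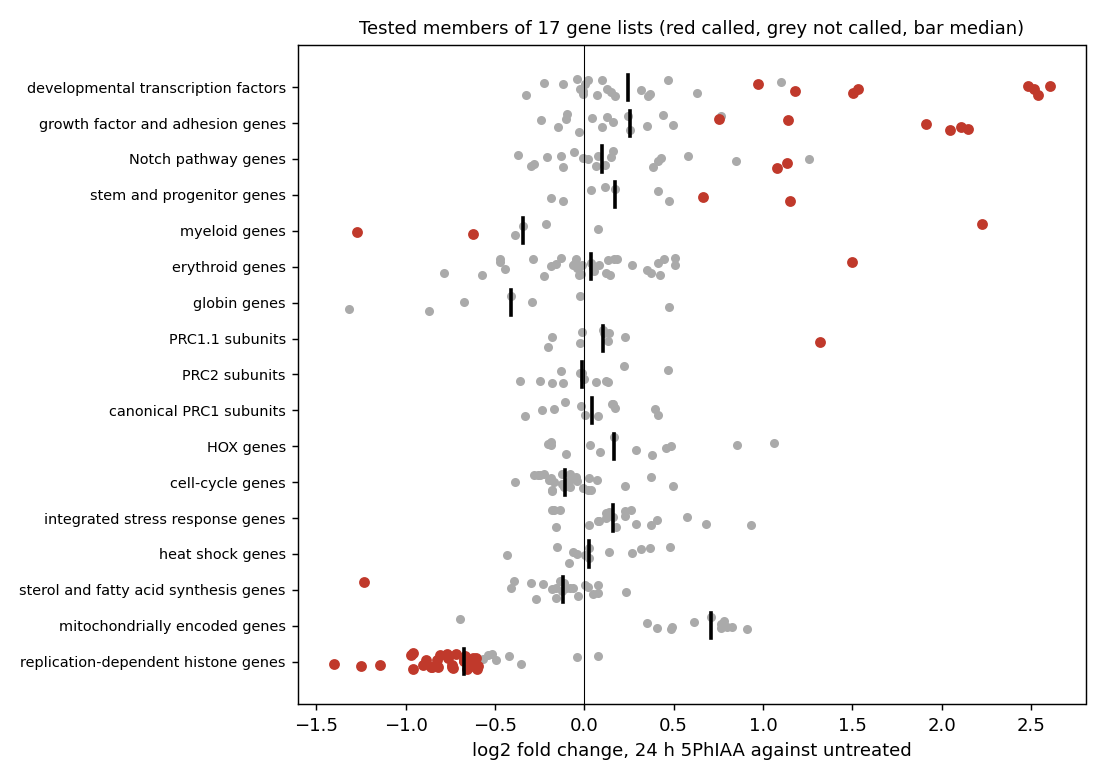
Log2 fold change at 24 h against untreated for each tested member of 17 gene lists, with called members in red, the others in grey and a black bar at each list's median. Called developmental and growth factor genes lie to the right of 0, 32 of 40 histone genes lie to the left of 0 in red, and 12 of 13 mitochondrially encoded genes lie to the right of 0 in grey.

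The falling genes included replication-dependent histone genes, whose transcripts lack a poly(A) tail and are made in S phase. Of 40 tested histone genes 32 fell and none rose, beside 1.16% of all genes tested that fell, and the list's median was -0.67. H4C9 stood at 189, 179 and 144 CPM untreated and at 76.3, 68.9 and 69.2 CPM at 24 h (a log2 difference of -1.25, SE 0.10, adjusted p = 2.3e-08). H4C1 stood at 57.8, 44.2 and 33.9 CPM and then at 16, 18.4 and 17.7 CPM (-1.40, SE 0.15, adjusted p = 8.5e-06). The linker histone gene H1-2, the most abundant falling gene, stood at 2625, 2441 and 2350 CPM and then at 1731, 1575 and 1572 CPM (-0.60, SE 0.07, adjusted p = 1.1e-05). H1-4 (-0.63), H3C2 (-0.76) and H4C3 (-0.89) were also among the 5 largest falls in CPM, and H1-2 and H1-4 came under the size threshold without untreated library 1, at -0.56 and -0.52, and with the length offset described in the next paragraph, at -0.49 and -0.52. H1-2 did so too without 24 h library 2 or 3, at -0.58 in both. Histone genes are near-identical copies, so reads of one may be counted for another and single-gene levels are uncertain. On chromosome 6, where most of these genes lie in clusters, 37 of 752 genes tested fell (4.92%), and 5 of the 37 are outside the histone list.

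Genes with short transcripts took a smaller share of the counts at 24 h. Of the 164 falling genes 69 (42.1%) had under 1000 exonic bases, as had 7.22% of all genes tested and 1.17% of the rising genes. The falling genes included 14 of 35 tested snRNA genes and 7 of 54 tested snoRNA genes, beside 1.16% of all genes tested. Genes under 500 exonic bases took 1.59, 1.40 and 1.28% of the counts in the untreated libraries and 0.953, 0.866 and 0.940% at 24 h. The histone list took 1.68, 1.59 and 1.42% and then 1.07, 1.02 and 0.982%. Neither share overlapped between groups, and the part of this shift in the histone calls was not tested apart from 1 alternative fit. With a length trend taken out of each library, 493 genes were called, 101 of them lower, and 362 of the higher and 94 of the lower ones were among the calls given above. In that fit 19 histone genes were called lower and the list's median was -0.56.

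**Figure D3:**
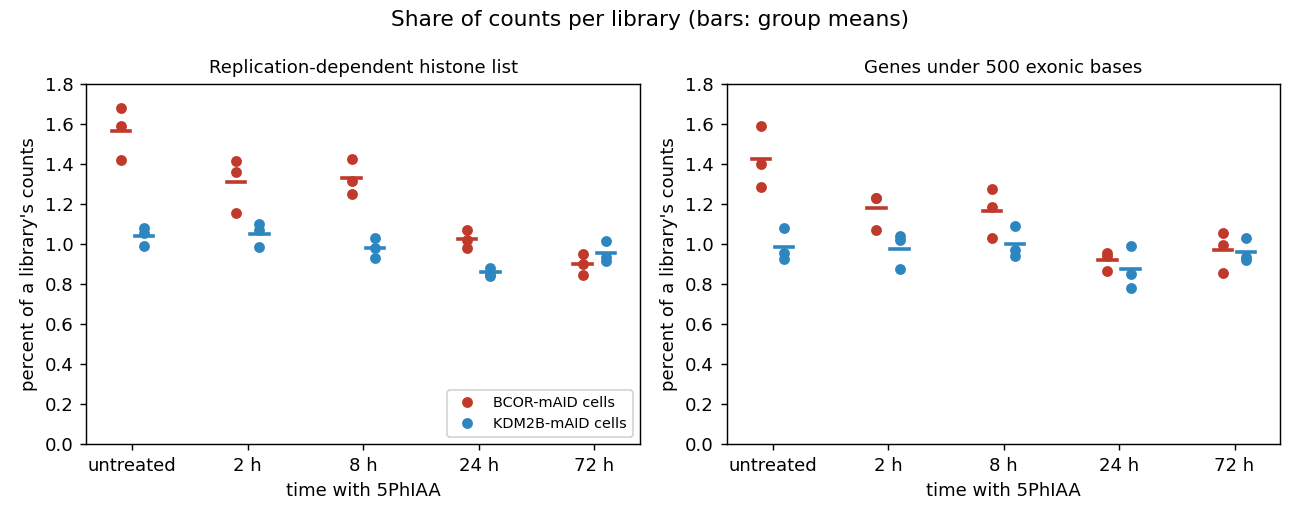
Percent of each library's counts in the replication-dependent histone list (left) and in genes under 500 exonic bases (right), in untreated cells and at 4 times with ligand, for BCOR-mAID (red) and KDM2B-mAID cells (blue), with bars at group means. For the histone list the untreated BCOR-mAID libraries lie at 1.42 to 1.68%, overlapped at their lower end by 1 of the 8 h libraries, the 24 h libraries at 0.982 to 1.07%, and the untreated KDM2B-mAID libraries at 0.988 to 1.08%.

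Outside the histone genes 12 of the 15 leading falls remain. IL2RG stood at 4.23, 2.97 and 4.03 CPM untreated and at 1.30, 0.399 and 1.36 CPM at 24 h (a log2 difference of -1.79, SE 0.46, adjusted p = 0.016). C3AR1, the receptor of complement C3a, stood at 2.87, 3.24 and 3.72 CPM and then at 0.804, 1.20 and 1.70 CPM (-1.55, SE 0.30, adjusted p = 0.0017). GBP2, an interferon-inducible GTPase, stood at 14.1, 16.4 and 17 CPM and then at 5.50, 5.72 and 8.69 CPM (-1.32, SE 0.17, adjusted p = 1.6e-05). Other interferon-stimulated genes did not pass, as given above.

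GLUL, glutamine synthetase, had the second largest fall in CPM. It stood at 1620, 1779 and 1722 CPM untreated and at 1118, 1103 and 1101 CPM with ligand (-0.62, SE 0.07, adjusted p = 1.6e-06). DES, the muscle intermediate filament desmin, stood at 24.2, 24.1 and 15.1 CPM and then at 11.1, 9.44 and 9.37 CPM (-1.07, SE 0.20, adjusted p = 0.0025). CYP51A1, lanosterol demethylase, fell by 1.24 (SE 0.31) and was the only one called of 22 sterol and fatty acid synthesis genes, whose median was -0.12. Over all genes tested 1.16% fell. The list of leading falls also held perforin (PRF1, -1.31), IGFBP4 (-1.29), DNAJB5 (-1.23), the tetraspanin CD53 (-1.09), COX8A (-1.07), a cytochrome oxidase subunit, and SOSTDC1 (-1.05), an antagonist of BMP and Wnt signals. Several of these calls depend on the processing or on single libraries. With the length offset the adjusted p was 0.0676 for CD53, 0.0508 for COX8A and 0.0502 for SOSTDC1. It was 0.0712 for CD53 with no filter, and with only the 6 libraries 0.104 for CD53 and 0.0715 for COX8A. Without ligand-treated library 1 the adjusted p was 0.189 for PRF1, 0.0503 for IGFBP4, 0.0537 for CTSS, 0.0508 for CYP51A1, 0.0889 for DNAJB5, 0.157 for CD53 and 0.135 for SOSTDC1. Without ligand-treated library 2 it was 0.0778 for IL2RG, 0.0635 for IGFBP4, 0.0819 for DNAJB5, 0.104 for CD53 and 0.0933 for COX8A. Without ligand-treated library 3 it was 0.0726 for CD53, 0.0669 for COX8A and 0.0728 for SOSTDC1. Without untreated library 1 it was 0.0577 for IL2RG, 0.0559 for CD53 and 0.0543 for COX8A, without untreated library 2 it was 0.0905 for PRF1, 0.0539 for DNAJB5, 0.116 for CD53 and 0.077 for SOSTDC1, and without untreated library 3 it was 0.055 for SOSTDC1.

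Of 19 genes tested on the mitochondrial chromosome 1 was called higher (5.26%), beside 3.03% of all genes tested. None of the 13 genes in the mitochondrially encoded list was called. Of these 13, 12 had a positive log2 fold change and MT-ND3 a negative one (-0.70), with a median of 0.71. Their sum ran from 6944 to 9721 CPM in untreated libraries and from 12490 to 15310 CPM at 24 h. MT-ND4, a complex I subunit, came nearest to a call at 1219 ± 166 CPM untreated and 2294 ± 345 CPM at 24 h (0.91, SE 0.29, adjusted p = 0.063). With only the 6 libraries in the fit 7 of the 13 were called, and DESeq2 called 3.

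The 24 h state was then placed in the time course. At 2, 8, 24 and 72 h the 428 genes that rose at 24 h had median log2 fold changes of 0.33, 0.82, 1.08 and 1.07, and the 164 that fell had -0.27, -0.34, -0.84 and -0.77. All 4 values use the same untreated libraries and the genes were chosen at 24 h, so these are given side by side as a description. Among the leaders, SRRM3 stood at 2.18, 2.97, 3.13 and 4.21, SLC12A7 at -0.25, 1.75, 2.89 and 4.08, and ZBTB16 at 0.03, 1.88, 2.54 and 3.63 log2 units. The falling IGFBP4 stood at 0.01, -0.09, -1.29 and -0.80, DES at -0.01, 0.07, -1.07 and -2.11, and C3AR1 at 0.14, -0.21, -1.55 and 0.00.

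**Figure D4:**
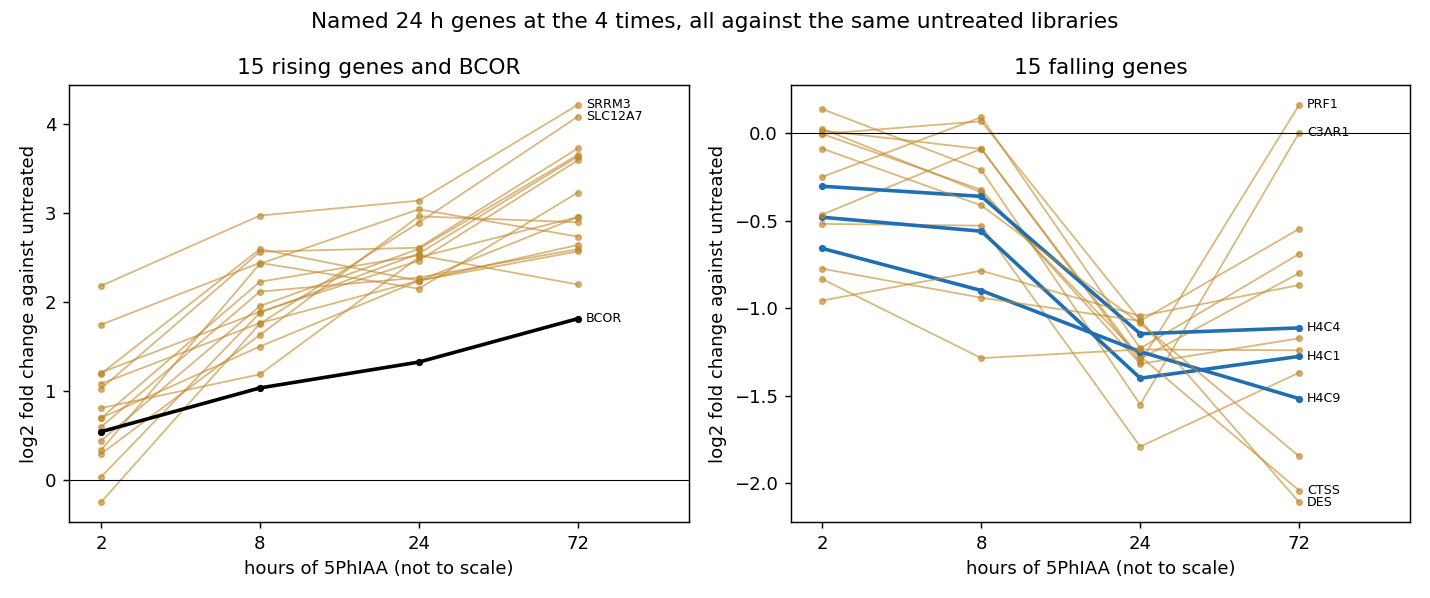
Log2 fold change against untreated at 2, 8, 24 and 72 h (axis not to scale) for the 15 rising genes with BCOR in black (left) and the 15 falling genes with the 3 histone H4 genes in blue (right). All 15 rising genes are above 1 at 8 h, whereas most falling genes other than CYP51A1, COX8A, SOSTDC1 and H4C9 lie between -0.6 and 0.2 at 8 h, and PRF1 and C3AR1 are back at 0.16 and 0.00 at 72 h.

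Tested directly, 24 h differed from 8 h at 181 of 14110 genes (1.28%), with 87 (0.617%) higher and 94 (0.666%) lower at 24 h. SLC12A7 rose further, from 7.78, 4.36 and 6.12 CPM at 8 h to 15.2, 13.3 and 10.4 CPM at 24 h (log2 difference 1.13, SE 0.21, adjusted p = 0.0027). So did CMTM7 (1.31, SE 0.33), the proton-gated channel ASIC1 (1.16, SE 0.29) and TLN2, talin 2 (1.11, SE 0.29). The serpin SERPINI1 (1.72, SE 0.32) and the costimulatory ligand CD80 (1.25, SE 0.29) were higher at 24 h than at 8 h without being called against untreated, with CD80 at 1.26, 1.52 and 1.23 CPM at 8 h and 2.29, 3.99 and 4.09 CPM at 24 h. At 8 h CD80 was called lower than untreated (-1.05, SE 0.27). The falls from 8 h to 24 h were led by KISS1R (-1.44, SE 0.28), C3AR1 (-1.34, SE 0.32), DNAJB5 (-1.32, SE 0.34), MILR1 (-1.21, SE 0.32), IGFBP4 (-1.20, SE 0.28) and PTPN7 (-1.17, SE 0.29). KISS1R, MILR1 and PTPN7 were not called at 24 h against untreated. Their mean CPM at 8 h lay above the untreated one, at 4.53 against 2.87, 2.57 against 1.70 and 113 against 88.7. IGFBP4 stood at 107, 128 and 192 CPM at 8 h and at 59.2, 48.4 and 78.2 CPM at 24 h. The count fell to 112 without ligand-treated 24 h library 1, 53 without 24 h library 2 and 83 without 8 h library 3.

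Between 24 h and 72 h 82 of 14110 genes differed (0.581%), with 52 higher and 30 lower at 72 h. The gap junction gene GJA4 rose from 0.309, 0.133 and 0.341 CPM to 1.90, 3.02 and 2.45 CPM (3.15, SE 0.47, adjusted p = 0.0016). The transcription factor ONECUT3 (2.34, SE 0.47), the calcium channel gene CACNA1H (1.93, SE 0.37) and the transcription repressor PRDM1 (1.20, SE 0.25) were also higher at 72 h. C3AR1 (1.55, SE 0.30) and PRF1 (1.47, SE 0.37), which had fallen at 24 h, were higher at 72 h than at 24 h. The fall and the return share the same 24 h libraries, with 32 counts of C3AR1 and 35 of PRF1, so they are not independent. AHSP, the alpha-haemoglobin stabilising protein of erythroid cells, went from 21, 20.1 and 13.6 CPM to 6.31, 7.31 and 7.58 CPM (-1.40, SE 0.18, adjusted p = 0.00094). ACP3 (-1.76, SE 0.28), S100A1 (-1.90, SE 0.47), DES (-1.04, SE 0.23) and SLIT2 (-0.96, SE 0.23) were lower too. The count was 21 to 36 without 24 h library 1 or 2 or any 1 of the 72 h libraries, 132 by DESeq2, 202 with no filter on low counts, 241 with the replicate number as a block and 302 with only the 6 libraries compared.

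The 24 h effect was compared with that of the KDM2B degron, which targets the DNA-binding subunit of the same complex and has its own 3 untreated libraries. Each degron sits in its own tagged cells with its own series of libraries. Effects of the target, of the cells and of the series therefore cannot be told apart in this comparison. Of the 428 genes that rose with the BCOR degron, 278 (65%) also rose with the KDM2B degron, and these were 20.4% of the 1362 genes that rose there, with 9.66% of the 14098 genes tested in both rising with the KDM2B degron. Of the 164 that fell 35 (21.3%) also fell there, 8.91% of the 393 that did, with a background of 2.79%. In opposite directions, 4 genes rose with BCOR and fell with KDM2B and 4 did the reverse. Of the 15 leading rises 13 were called the same way in KDM2B-mAID cells. NR2F1 stood there at 0.356, 0.645 and 0.395 CPM untreated and at 0.797, 1.06 and 0.908 CPM at 24 h, and its effect did not differ past the threshold (difference 1.62, SE 0.58, adjusted p = 0.055). Of the 15 leading falls 4 were called the same way there.

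The difference between the effects was called at 1133 of 15052 genes (7.53%), with the BCOR effect above the KDM2B effect at 360 (2.39%) and below it at 773 (5.14%). The difference took in nearly the whole list of integrated stress response genes, where it was called in 20 of 21 members, each with the lower effect for the BCOR degron. With the KDM2B degron 21 of 21 were called higher (median 1.77), beside 10.1% of all genes tested, and 0 of 21 were called with the BCOR degron. In BCOR-mAID cells the list's summed level ran from 1798 to 3367 CPM untreated and from 2452 to 2898 CPM at 24 h. The untreated libraries thus spread around the 24 h ones, and the lack of calls does not show a lack of response. Untreated levels of CHAC1 and DDIT4, given next, also differ between the lines. CHAC1, a glutathione-degrading enzyme of that response, stood at 11.2, 6.49 and 21.5 CPM untreated and 19.1, 13.2 and 17.2 CPM at 24 h in BCOR-mAID cells, against 3.63, 3.55 and 4.82 and then 44.8, 50.2 and 57.6 CPM in KDM2B-mAID cells. The difference was -3.27 (SE 0.56, adjusted p = 0.00067). DDIT4, an mTORC1 inhibitor, stood at 207, 117 and 435 CPM and then 333, 234 and 307 CPM in BCOR-mAID cells, so that its untreated libraries spread widely, against 98.5, 74.6 and 104 and then 924, 865 and 948 CPM (difference -3.09, SE 0.66, adjusted p = 0.0033). ASNS, asparagine synthetase, was the 1 member whose difference did not pass (-0.50, SE 0.53).

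Heat shock genes showed the reverse pattern. The difference was called in 8 of 13, each with the BCOR effect above the KDM2B effect, 8 fell with the KDM2B degron (2.8% of all genes tested did) and 0 were called with the BCOR degron. HSPA1A, an inducible HSP70 gene, stood at 263, 206 and 171 CPM untreated and 306, 276 and 299 CPM at 24 h in BCOR-mAID cells, and at 200, 216 and 191 and then 58.7, 57.2 and 62.7 CPM in KDM2B-mAID cells (difference 2.23, SE 0.29, adjusted p = 6.2e-05). HSPA1B, its near-identical neighbour, differed by 1.91 (SE 0.26), and reads may be shared between the pair.

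Single genes on either side included myeloid and metabolic genes. SPI1 fell with the BCOR degron and stood at 12.8, 13.2 and 15.5 CPM untreated and 18.9, 17.4 and 19.9 CPM at 24 h in KDM2B-mAID cells (difference -1.08, SE 0.19, adjusted p = 0.00024). GLUL stood there at 640, 723 and 624 CPM and then at 763, 785 and 857 CPM (difference -0.92, SE 0.10, adjusted p = 1.1e-06). IQGAP2, a scaffold protein, rose in BCOR-mAID cells from 10.3, 6.05 and 8.91 to 31.5, 27.8 and 29.3 CPM (1.84, SE 0.15). In KDM2B-mAID cells it stood at 76.8, 63.2 and 79.9 and then at 96, 85.1 and 75.2 CPM, so that the lines differ before ligand (difference of effects 1.60, SE 0.21, adjusted p = 2.5e-05). SLC12A7 (1.1, SE 0.32) and S100A10 (1.25, SE 0.44) were the 2 leading rises with a called difference, both larger with the BCOR degron. BCOR RNA itself stood at 248, 246 and 249 CPM and then at 343, 346 and 361 CPM in KDM2B-mAID cells (difference 0.80, SE 0.10, adjusted p = 6.2e-06). Of the 40 tested histone genes 15 were called lower and 1 higher with the KDM2B degron, beside 2.8% and 10.1% of all genes tested. The difference was called at 4 of them, each lower with the BCOR degron, beside 5.14% of all genes tested.

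**Figure D5:**
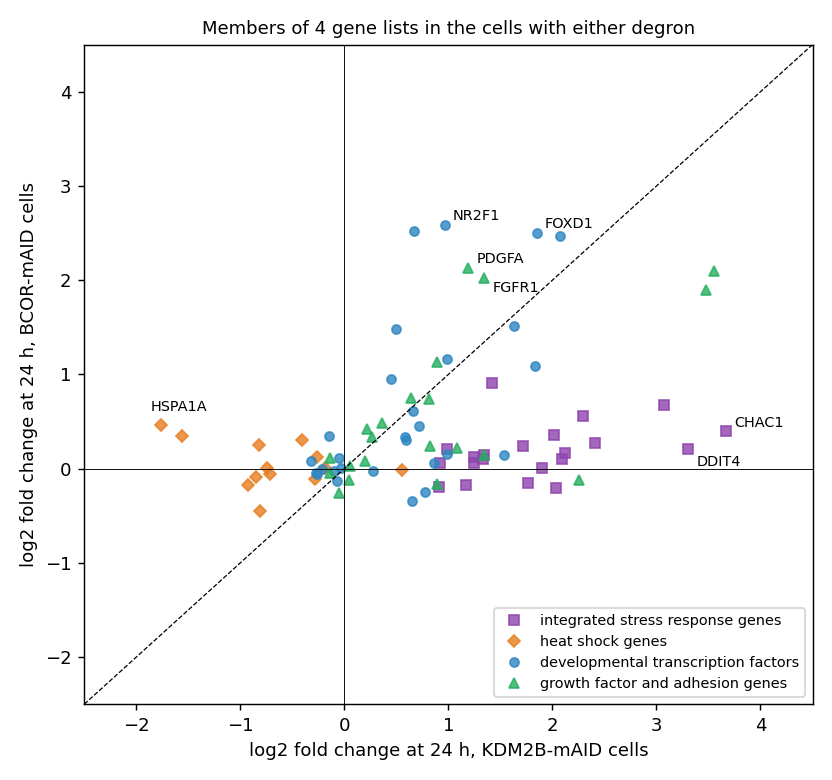
Log2 fold change at 24 h in KDM2B-mAID cells (horizontal) against BCOR-mAID cells (vertical) for members of 4 gene lists that were tested in both fits, with a dashed line at equal effects. Integrated stress response genes lie to the right, between -0.20 and 0.91 on the vertical axis, and heat shock genes other than HSPA5 lie to the left, whereas FOXD1 and FGFR1 lie in the upper right and other members of their lists, such as ZIC2 and GDF15, do not. In KDM2B-mAID cells FGFR1 rests on 7 counts untreated and 23 at 24 h, with overlapping groups.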

How the data were processed

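Gene counts of 15 BCOR-mAID and 15 KDM2B-mAID libraries were analysed, from 2 of 5 deposited tables. The authors deposited raw read counts per Ensembl gene, not normalized. Per the labels' protocols, RNA was ribosome-depleted before sequencing. The submitters' processing notes name STAR, DESeq2 and hg38. The counting program, its strand setting and the annotation release were not given in the sources used here, so overlapping and antisense genes and near-identical copies are uncertain. Names, types and exon lengths came from GENCODE release 44. The members and gene lists were chosen with earlier results of these data known.

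Counts were fitted with edgeR 4.0.16 (R 4.3.3, limma 3.58.1; filterByExpr, TMM, robust quasi-likelihood F test), with all 15 BCOR libraries in 1 fit, and with all 30 libraries in another for the difference from the KDM2B degron. Every adjusted p is Benjamini-Hochberg over all genes tested, and each SE was derived from the size of the fold change and its F statistic (log2 value over root F). TMM factors of the BCOR fit ran from 0.9658 to 1.0251 and its common biological coefficient of variation was 0.0835. The code was tested on simulated data. Low library totals limit the precision of genes near 1 CPM, and the 3 smallest libraries of the BCOR fit are 24 h library 3 (5806624 counts), 8 h library 3 (6576062) and 24 h library 2 (7349061).

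The text names the 15 called protein-coding genes each way with the largest fold change (mean of at least 2 CPM in the higher group, groups not overlapping), the 5 each way with the largest difference in CPM, up to 4 called members per list, 6 each way in the other comparisons (of which 1 gene lower at 72 h is not reported here), and BCOR, BCORL1, KDM2B and PCGF1. Further list members named without a call were chosen after their values were seen. Alternatives were RLE factors, no filter on low counts, DESeq2 1.42.0, only the libraries compared, the replicate number as a block, each library left out and, chosen after seeing the data, a length offset (lowess, span 0.3). Same-numbered 24 h and untreated libraries correlated at 0.0609 to 0.1139 in their deviations from the group means. Different-numbered ones correlated at -0.0847 to -0.0089, below every same-numbered pair. The reported fit does not use the numbers, so any pairing by number is left in its spread. The counts with the number as a block are given below.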

Additional observations from a re-analysis of the deposited data

Results flagged for a closer look

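The 24 h effect of the BCOR degron differed from that of the KDM2B degron at 1133 genes, by the test of the difference itself. The target, the tagged cells and the series of libraries cannot be told apart in this difference. Of the named genes the effect was higher with the BCOR degron at HSPA1A (log2 difference 2.23), GOLGA8A (2.19), TSPOAP1 (2.04), HSPA1B (1.91), CFAP44 (1.8) and IQGAP2 (1.60). It was lower at GIMAP2 (-5.18), CHAC1 (-3.27), DDIT4 (-3.09), ASS1 (-3.07), NHLH1 (-3.03) and RGS3 (-3.00). The value of GIMAP2 depends on the prior count, since its BCOR-mAID libraries held 10 counts untreated and 0 at 24 h. Against a floor of 3 counts over the group, GIMAP2 was at least 2.11-fold lower at 24 h.

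Between 8 and 24 h with ligand 181 genes differed. The named genes higher at 24 h were SERPINI1 (1.72), CMTM7 (1.31), CD80 (1.25), ASIC1 (1.16), SLC12A7 (1.13) and TLN2 (1.11), and those lower were KISS1R (-1.44), C3AR1 (-1.34), DNAJB5 (-1.32), MILR1 (-1.21), IGFBP4 (-1.20) and PTPN7 (-1.17).

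Between 24 and 72 h 82 genes differed. The named genes higher at 72 h were GJA4 (3.15), ONECUT3 (2.34), CACNA1H (1.93), C3AR1 (1.55), PRF1 (1.47) and PRDM1 (1.20), and those lower were S100A1 (-1.90), ACP3 (-1.76), AHSP (-1.40), DES (-1.04) and SLIT2 (-0.96). Groups of 3 libraries were too small for a test of a single outlying value in a gene.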

How the results depend on the processing

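For 24 h against untreated, 592 genes were called in the fit reported, 505 by DESeq2, 590 with RLE factors, 647 with no filter, 497 with only the 6 libraries, 493 with the length offset and 391 to 671 without a single library. With the replicate number as a block the counts were 701 for 24 h against untreated, 260 against 8 h and 241 for 72 h against 24 h. For 24 h against 8 h they ran from 53 to 195 without a single library. Between 24 and 72 h the count of 82 became 132 by DESeq2, 202 with no filter, 302 with only the 6 libraries and 21 to 102 without a single library. The cause was not tested. The difference from the KDM2B degron ran from 811 to 1224 without a single library, and with RLE factors its 1110 calls split into 416 higher and 694 lower. Of 480 pairs of a named gene and an alternative, 428 kept the direction and the call, 52 lost the call and 0 reversed, and 25 of 40 genes were called under every alternative run. The low totals of 24 h libraries 2 and 3 and of 8 h library 3 limit calls at genes of few counts.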
